A study of Mus musculus with 2 samples.

Results

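The miR-15/16 family is a group of microRNAs (miRNAs) that share one seed, the stretch of bases that pairs with target mRNAs, and miR-15b-3p is the arm opposite miR-15b-5p in the same hairpin. The rows were chosen by their miRBase accessions: MIMAT0000526 for miR-15a-5p, MIMAT0000124 for miR-15b-5p, MIMAT0000527 for miR-16-5p, MIMAT0000225 for miR-195a-5p, MIMAT0000548 for miR-322-5p and MIMAT0004521 for miR-15b-3p. They are 6 of the 739 rows of the table. The row of miR-15b-3p was added for its extreme ratio between the tissues, and the family was picked with results of these arrays known, so their values are a description.

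The study compared CD4+ T cells, the helper lineage, of the intestinal lamina propria with those of the spleen, on 1 miRNA array per tissue. The lamina propria is the connective tissue layer under the gut epithelium, rich in antigen-experienced T cells, and the spleen is a lymphoid organ with many resting T cells. Cells of both groups came from 10-week-old female C57BL/6 mice of the genotype IL-10 +/-, which carry 1 working copy of the gene for the anti-inflammatory cytokine interleukin 10, so no group has the wild-type genotype. Lamina propria lymphocytes were freed with collagenase and CD4+ T cells of both tissues were taken on magnetic beads; no source used here states from how many mice each RNA came. Tissue and collagenase treatment cannot be told apart, and fewer cells of a type and less RNA per cell cannot be told apart in such bulk samples. Markers of CD4+ T cells and of other cell types were not assessed, because no table used here pairs the other rows with names.

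A miRNA hairpin is cut into a duplex, of which usually one arm, the guide, is kept by an Argonaute protein and the other, the passenger, is degraded. The miR-15/16 family is known for restraining the cell cycle and survival through targets such as cyclins and Bcl2, and in humans the cluster of miR-15a and miR-16-1 is lost in many chronic lymphocytic leukaemias. In mouse T cells the family is known to limit proliferation and the formation of memory cells.

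All 6 members matched a RefSeq sequence by name. The mature sequences are shown 5′ to 3′ because the family is defined by them. Capitals mark the seed, bases 2 to 8.
miR-15a-5p: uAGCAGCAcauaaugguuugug
miR-15b-5p: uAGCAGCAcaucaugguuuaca
miR-16-5p: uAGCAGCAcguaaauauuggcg
miR-195a-5p: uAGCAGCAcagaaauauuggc
miR-322-5p: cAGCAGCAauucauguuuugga
miR-15b-3p: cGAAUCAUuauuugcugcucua
The 5 family members had the seed AGCAGCA, which was found in 10 of 1679 mature mouse miRNA names in the RefSeq table. The seed of miR-15b-3p, GAAUCAU, was found in that table for miR-15b-3p only, so by seed this arm is no member of the family. Beyond the seed the family fell into closer pairs. Over 21 bases, miR-16-5p and miR-195a-5p differed by G10A and U11G, with positions counted from 1 at the 5′ end and the base of the first-named miRNA first. Over 22 bases, miR-15a-5p and miR-15b-5p differed by A12C, G20A, U21C and G22A. The least alike of the family's pairs were miR-195a-5p and miR-322-5p, identical at 11 of 21 bases. No source used here states how far the probes tell such close sequences apart.

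On the RefSeq assembly GRCm38.p6, miR-15a-5p lies at chr14:61632075-61632096 on the minus strand, 117 bases from the copy of miR-16-5p made from Mir16-1, at chr14:61631936-61631957. Both hairpins lie within the lncRNA gene Dleu2. The other copy of miR-16-5p, made from Mir16-2, lies at chr3:69009918-69009939 on the plus strand, 121 bases from miR-15b-5p at chr3:69009775-69009796. Mir15b and Mir16-2 lie within Smc4, a protein-coding gene for a condensin subunit. The copies of miR-16-5p have one mature sequence, so its row sums both clusters. The 5p arm of miR-195a lies at chr11:70235062-70235082 on the plus strand, 310 bases from that of miR-497a, another miRNA with the family's seed. The 5p arm of miR-322, the mouse counterpart of human miR-424, lies at chrX:53054306-53054327 on the minus strand, 256 bases from that of miR-503, inside the lncRNA gene C430049B03Rik. Rows of miR-497a, miR-503 and the other 3p arms of these hairpins were not analysed here.

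The 4 family members with a value in both tissues were lower in lamina propria CD4+ T cells on the deposited scale, while miR-15b-3p was far higher there. The values are linear intensities in arbitrary units. With 1 array per tissue they have n = 1 and no error, so no test was possible and the number of arrays limits their precision.

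The row of miR-16-5p, the member made from both clusters, had an intensity of 437.17 in lamina propria and 1999.96 in spleen. This was 4.57-fold lower in lamina propria, a log2 ratio of -2.19. As deposited it was the only member past 4-fold lower, and 19 of the 353 rows listed on both arrays had a lower ratio. With the medians of the arrays set equal, the log2 ratio of miR-16-5p was -1.77, short of 4-fold. The row of miR-15b-5p, its neighbour in Smc4, had 321.20 in lamina propria and 1098.74 in spleen, 3.42-fold lower in lamina propria, a log2 ratio of -1.77. For this guide arm, 43 of the 353 rows had a lower ratio. The row of miR-15a-5p, the Dleu2 member, had 53.06 in lamina propria and 133.92 in spleen, 2.52-fold lower in lamina propria, a log2 ratio of -1.34. Here 75 of the 353 rows had a lower ratio, and after quantile normalization the direction was lost, at a log2 ratio of 0.03.

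The row of miR-195a-5p, a member known from work on heart muscle, had 6.54 in lamina propria and 19.45 in spleen, 2.97-fold lower in lamina propria, a log2 ratio of -1.57. This row was dim: the lowest value listed in lamina propria was 2.88, and this value was 2.27 times that. With 10 added to both values its log2 ratio was -0.83. The row of miR-322-5p was blank in lamina propria and had 2.50 in spleen. Its spleen value was below the lowest value listed in lamina propria, so no direction can be given for it. The lowest value listed in spleen was 1.39. If blank rows lie below the lowest value listed, their bounds differ between the 2 arrays, but the detection rule is not stated.

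**Figure D1:**
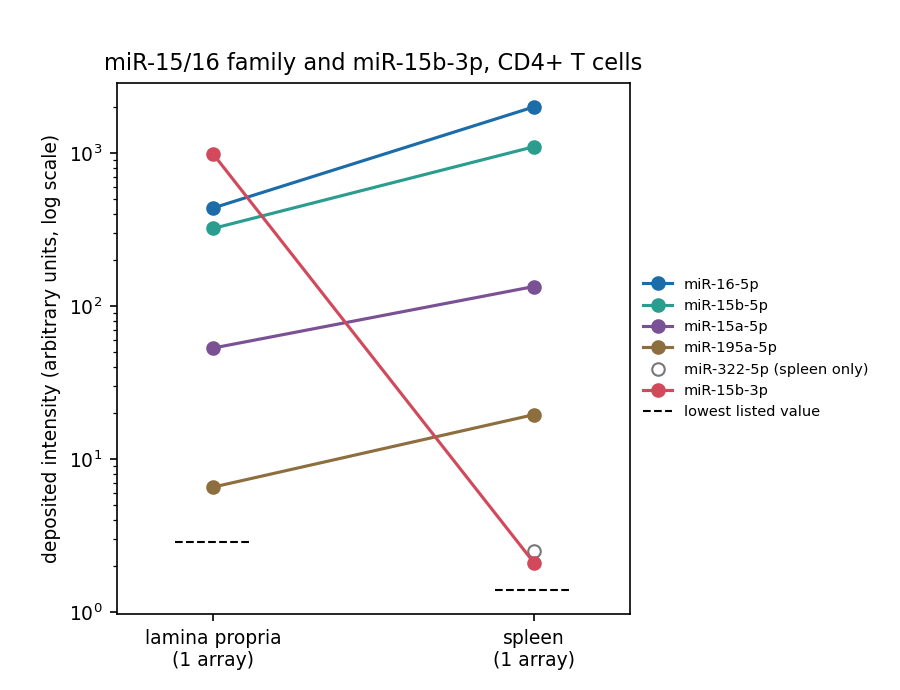
Deposited intensity (arbitrary units, log scale) of each member in CD4+ T cells of the lamina propria (left) and spleen (right), 1 array each; lines join the values of 1 row and dashes mark the lowest value listed on each array. The lines of the 4 family members lie lower in lamina propria, and the line of miR-15b-3p runs the other way, at 984.31 in lamina propria and 2.10 in spleen.

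At least 2-fold lower values were found for 4 of the 5 members with both values, against 25.8% of all 353 rows, and at least 2-fold higher values for 1 of 5, against 16.1%. All 5 lay in the brighter 50% of rows, ranked on mean log2 level, where 41.2% of rows were lower by that fold and 15.3% higher. The row of miR-15b-3p lay there only through lamina propria, with a log2 intensity of 9.94 there and 1.07 in spleen. The choice of members used this contrast, and nothing is read from these shares. Over all 353 rows, 91 were at least 2-fold lower and 57 higher as deposited, and 70 lower and 107 higher with the medians of the 2 arrays set equal. The median log2 ratio of the 4 family members was -1.67, or 3.19-fold lower in lamina propria, beside 0.0093 over all shared rows and -0.59 over the brighter 50%. Setting medians, 75th percentiles or the trimmed total equal raised each ratio by 0.43, 0.39 or 0.37. Relative to the median of all shared rows, the family median was -1.68 as deposited and lay between -1.68 and -1.11 under the 8 alternatives in scaling, pseudocount and lowest value.

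As deposited, the log2 ratios of the family spanned 0.86, or 1.81-fold, from miR-16-5p to miR-15a-5p. A single factor between the arrays cannot change this span, but it was 2.17 after quantile normalization and 1.5 after trend removal, and with 10 added the family spanned 1.34, from miR-16-5p to miR-195a-5p. The guide arms of miR-15a and miR-15b, which differ at 4 of 22 bases, were 0.44 apart on the log2 ratio scale as deposited, or 1.36-fold, 1.32 apart after quantile normalization and 0.93 after trend removal. Without replicates it cannot be said whether such gaps exceed the error of the arrays. Summed over the 4 members the intensity was 817.97 in lamina propria and 3252.07 in spleen, 3.98-fold lower in lamina propria. This sum was 0.448% of the array's summed intensity in lamina propria and 2.39% in spleen, and 3.05% and 9.41% with the 10 brightest rows of each array left out of the total. The sum mainly follows miR-16-5p and miR-15b-5p, the brightest of the 4 rows. Whether this reflects abundance or probe brightness was not tested.

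The row most like miR-16-5p in its pair of log2 intensities, at a Euclidean distance of 0.095, had 462.96 in lamina propria and 2066.87 in spleen. The next 2 were 0.62 and 0.71 away, with log2 ratios of -1.50 each. This likeness is over 2 arrays only, and these rows are unnamed in the tables used here.

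**Figure D2:**
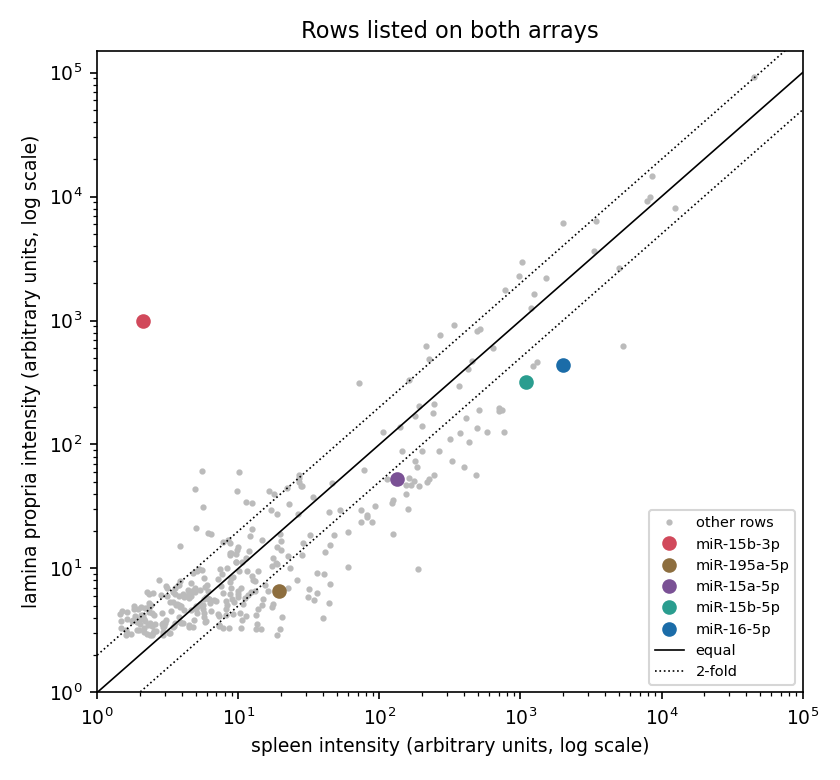
Lamina propria against spleen intensity (arbitrary units, log scales) for the 353 rows listed on both arrays, with the 5 members in colour; the solid line marks equal values and the dotted lines 2-fold. The 4 family members lie below the lower dotted line, and miR-15b-3p, chosen for its ratio, lies at the upper left.

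The arms of miR-15b had ratios of opposite sign. The hairpin is shown because both measured arms come from it. On GRCm38.p6 it spans chr3:69009772-69009835 on the plus strand, and capitals mark first the 5p and then the 3p arm.
Mir15b: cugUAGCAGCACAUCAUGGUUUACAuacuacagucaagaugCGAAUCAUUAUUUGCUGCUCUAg
The arms are separated by 16 bases, and the minimum free energy fold of the hairpin pairs 16 bases of the 5p arm with the 3p arm, at chr3:69009813-69009834. Each cut duplex holds one copy of either arm.

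The row of miR-15b-3p had an intensity of 984.31 in lamina propria and 2.10 in spleen. The ratio of the 3p to the 5p intensity was 3.06 in lamina propria and 0.00191 in spleen. On the log2 scale these ratios were 1.62 and -9.03, so they differed by 10.65 between the tissues. Within a tissue, probes of different sequence need not be equally bright, so 3.06 does not show that the 3p arm was the more abundant one. Any single factor between the arrays cancels in the difference between the tissues. Probe brightness cancels only if each probe responds in proportion to its RNA with no added background, which was not tested. The passenger arm was chosen for this ratio, and the gap comes mainly from its own row: 8.87 of the 10.65 is its own log2 ratio, and the 5p arm gives the other 1.77.

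The ratio of miR-15b-3p rests on 1 reading in each tissue, and neither the lamina propria reading nor the spleen reading could be checked against scanner values or a second array. At 2.10, the spleen intensity of miR-15b-3p lay 1.51-fold above the lowest one listed there, and 101 of the 516 rows listed in spleen had lower values. With spleen values raised to 2.88, the lowest value listed in lamina propria, the log2 ratio of miR-15b-3p was 8.42 and the difference between the arms 10.19. With 10 added to both values they were 6.36 and 8.10.

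The place of this row among the others is given as a description, since it was chosen for its ratio and probes differ in brightness. The other 52 shared rows with spleen values under 2.88 had lamina propria intensities from 2.91 to 8.10, with a median of 3.90. This covers only rows with a lamina propria value. A further 116 rows with spleen values under 2.88 were blank in lamina propria. The row of miR-15b-3p lay outside that range. In the other direction, 15 rows had lamina propria intensities above that of miR-15b-3p. Their spleen intensities ran from 772.20 to 45486.9, with a median of 3334. The second highest ratio of the 353 was 11.1-fold, a log2 ratio of 3.48, which is 5.39 below that of miR-15b-3p. By Euclidean distance over both log2 intensities, the 3 rows nearest to miR-15b-3p were 4.24 to 4.66 away.

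The longest run of identical bases that miR-15b-3p shares with any of the other 1678 mature names in the RefSeq table was 8 bases, reached by 5 of them, among them miR-195a-3p. Sequences that are alike with mismatches were not searched for. Which of these rows the array holds, and their levels, could not be read from the accessions.

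**Figure D3:**
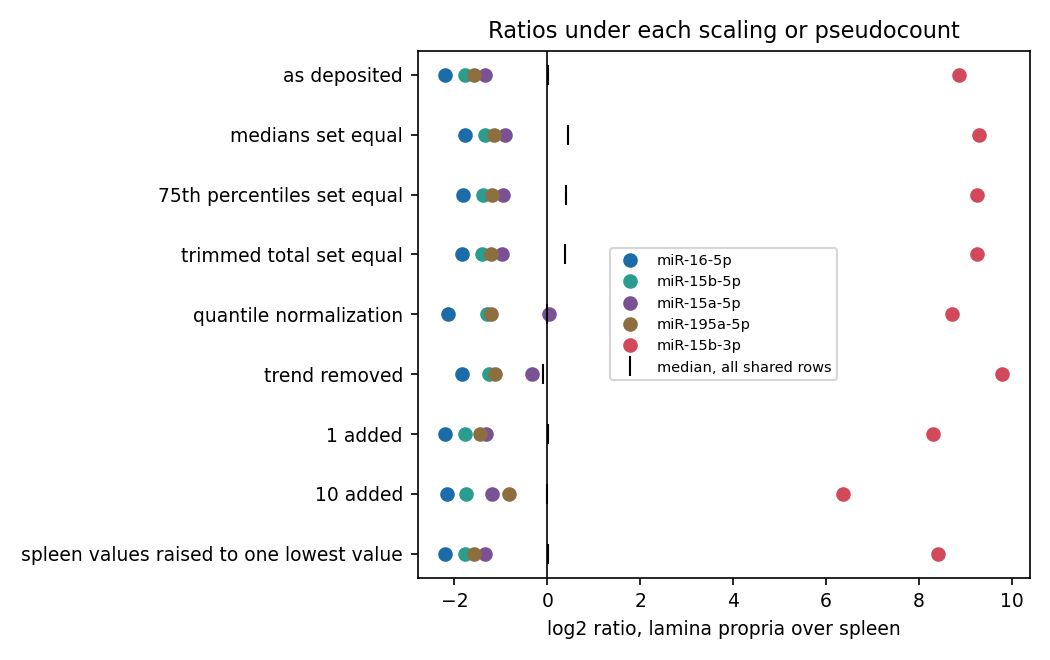
Log2 ratio of lamina propria over spleen (horizontal axis) for the 5 members with both values, as deposited and under each of 8 alternatives (rows); black ticks mark the median of all shared rows. The points of miR-16-5p, miR-15b-5p and miR-195a-5p stay left of 0 and those of miR-15b-3p stay at 6.36 or above, while miR-15a-5p reaches 0.03 after quantile normalization.

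Under the 8 alternatives, miR-16-5p and miR-15b-5p stayed at least 2-fold lower in lamina propria in 8 of 8. Their log2 ratios lay between -2.19 and -1.77 for miR-16-5p and between -1.77 and -1.26 for miR-15b-5p. The 8 are not independent checks. For the family members, 1 lowest value left the ratios as deposited, and the scalings by 1 factor shifted all rows alike. The row of miR-195a-5p stayed past 2-fold in 7 of 8, and miR-15a-5p in 3 of 8. For miR-15a-5p these were 1 added, 10 added and 1 lowest value. Its log2 ratio was -0.91, -0.95 and -0.97 with medians, 75th percentiles or trimmed totals set equal. It was 0.03 after quantile normalization and -0.34 after trend removal. The row of miR-15b-3p stayed past 2-fold higher in 8 of 8, between 6.36 and 9.79.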

How the data were processed

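Both arrays were 1-colour, and the RNA carried the dye Hy5, per the labels' protocols. The authors deposited 1 linear intensity value per row and array, with blanks. No source used here states their background subtraction, detection rule or scaling. Of 739 rows, 378 had a value in lamina propria and 516 in spleen, and 353 had both. Summed intensity was 182481 in lamina propria and 136232 in spleen.

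Ratios are log2 of lamina propria over spleen, computed on the values as deposited without scaling or a pseudocount. A row was counted at 2-fold or more. The members and lists were chosen with earlier results of these data known. The lists held the members and the rows nearest to miR-16-5p and to miR-15b-3p over both log2 intensities. Where a table names the rows, they also held partner arms, arm ratios of other hairpins and cell type markers. No table paired accessions with names (0 of them), so names are given to the 6 members only and those last lists were not run.

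Alternatives were equal medians, 75th percentiles or totals without the 10 brightest rows, lowess detrending (fraction 0.5), quantile normalization, 1 or 10 added, and 1 lowest value. Mature sequences and positions are from RefSeq (GRCm38.p6). Calculations used Python 3.11.15, numpy 2.4.6, pandas 2.3.3, statsmodels 0.14.6 and ViennaRNA 2.7.2, and the counting was tested on simulated data.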

Additional observations from a re-analysis of the deposited data

How the results depend on the processing

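With no replicates, a value was taken as moved when its log2 ratio changed by 0.05 or more, a bound set after the data were examined. The family median, -1.67 as deposited, was -1.24 for equal medians, -1.29 for equal 75th percentiles, -1.31 for equal trimmed totals, -1.25 under quantile normalization, -1.19 after trend removal, -1.61 with 1 and -1.47 with 10 added, and -1.77 without miR-195a-5p, a setting added after seeing the data. In the same order of the first 7, the log2 ratio of miR-15b-3p, 8.87 as deposited, was 9.30, 9.26, 9.24, 8.70, 9.79, 8.31 and 6.36, and it was 8.42 with one lowest value. The difference between the arms of miR-15b, 10.65 as deposited, was 9.99 after quantile normalization, 11.05 after trend removal, 10.08 with 1 and 8.10 with 10 added, and 10.19 with one lowest value. Setting medians, percentiles or totals equal left it as it was, by construction. The log2 ratio of miR-15a-5p changed sign after quantile normalization, to 0.032. Members at least 2-fold lower numbered 3 or 4 in each alternative other than a 4-fold threshold, which left 1. Scalings by 1 factor add a constant, and for the rest the cause was not tested. No paired analysis was possible because there was 1 array per tissue, which also leaves no replicate to drop. Signal over background is unknown.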
